A study of Mus musculus with 6 samples.

Results

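The genes described here are the sensors and activators of the IRE1-XBP1 and ATF6 arms of the unfolded protein response. They were chosen by name from the deposited gene count table, and all 7 of 7 names were found among its 54532 rows, each in 1 row. They are Ern1, Xbp1, Rtcb, Atf6, Atf6b, Mbtps1 and Mbtps2. RNA was sequenced from NIT-1 cells, a mouse insulinoma line derived from beta cells that carry a viral T antigen. In the EVs group, the cells were given extracellular vesicles (EVs) of human umbilical cord mesenchymal stem cells (hucMSC-EVs) for 16 h and then Tm, read here as tunicamycin, for 8 h. In the ERS group, named for endoplasmic reticulum (ER) stress, they were given PBS for 16 h and then the same 8 h of Tm. Each group had 3 libraries, every library came from cells under Tm, and no library without Tm was analysed here. A treatment label calls the ERS samples untreated, while their titles and the design text place them under Tm, which was followed.

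Tunicamycin blocks the first step of N-linked glycosylation, so that unfolded proteins gather in the ER. IRE1, the product of Ern1, then cuts 2 sites in the Xbp1 mRNA, and the RNA ligase RTCB joins the outer pieces into a message for an active transcription factor. ATF6 and its relative ATF6B are transcription factors held in the ER membrane. Under stress they move to the Golgi, where the site-1 protease (Mbtps1) and the site-2 protease (Mbtps2) release their active part. Secretory cells such as beta cells depend on these arms to match folding capacity to the load of hormone precursors.

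The stretch of Xbp1 that IRE1 and RTCB act on is shown because it is what the arm processes and what gene-level counts cannot resolve. In the mouse transcript (GENCODE M21) it lies in exon 4, on the plus strand of GRCm38, at chr11:5524259-5524324. Capitals in the first line mark the 26 bases removed, at chr11:5524279-5524304, and capitals in the second line mark the 6 bases that flank the new joint, 3 from each side.
Xbp1 unspliced: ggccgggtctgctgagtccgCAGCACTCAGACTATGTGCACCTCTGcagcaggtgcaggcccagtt
Xbp1 after ligation: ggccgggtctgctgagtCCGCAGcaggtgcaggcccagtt
The reading frame from the annotated start codon ran for 267 codons in the first form and for 371 codons in the second. The cut sites were located as a pair of CNGCAGC motifs with 19 bases between them, searched on the transcript strand. The pair occurred in transcripts of 67 of 21877 protein-coding genes (0.306%), and Xbp1 was the only one of the 7 members that held it. A match of letters is a description and not evidence of cutting, and since both forms count towards the same gene, the values below are for the 2 forms together.

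The 6 libraries held 28654248 to 32550268 counts, and 16844 genes had enough counts to be tested. Of 18 markers of beta cells, 12 were at 0 in every library, including Ins2, Iapp, Pdx1, Nkx6-1 and Slc30a8, none averaged 1 CPM (counts scaled to a common library total), and their summed level was 0.315 to 1.12 CPM in EVs and 0.13 to 0.589 CPM in ERS. The label beta cell was thus not borne out by these markers. A count of 0 allows up to 3 counts, at most 0.105 CPM in a library, and this covers counting error only. The summed level of 6 acinar and duct markers was 113 to 116 CPM in EVs and 84.6 to 92.6 CPM in ERS, with Cpa1, Ptf1a, Cela3b and Krt19 at 0 and Cela1 and Sox9 above 1 CPM. That of 9 fibroblast and mesenchymal markers was 19.9 to 22.3 CPM in EVs and 25.4 to 27.8 CPM in ERS. None was at 0 in every library, but Col1a2, Thy1, Lum and Dcn averaged below 1 CPM. Most of that difference came from Pdgfrb, with a mean of 2.31 CPM in EVs and 6.54 CPM in ERS, while Col3a1 ran the other way, with 6.33 CPM in EVs and 3.55 CPM in ERS. That of 8 markers of other islet endocrine cells was 19.2 to 20.4 CPM in EVs and 21.2 to 24 CPM in ERS, nearly all from Hhex, with Irx2, Ttr, Sst and Pyy at 0. That of 6 macrophage markers was 9.07 to 12 CPM in EVs and 8.30 to 8.82 CPM in ERS, nearly all from Cd68 and Cd14. Ptprc, Adgre1, Csf1r and Lyz2 were not at 0 in every library, but each averaged at most 0.065 CPM in either group. That of 5 endothelial markers was 29.5 to 31.2 CPM in EVs and 31.2 to 33.5 CPM in ERS, with Kdr and Emcn at 0. It came mostly from Pecam1, with a mean of 24.8 CPM in EVs and 28.0 CPM in ERS. Cdh5 had 5.21 CPM in EVs and 3.91 CPM in ERS, and Tek averaged below 1 CPM. The part of these shifts in the results below was not tested. In bulk RNA, fewer cells of a kind and less RNA per cell cannot be told apart. Nothing in the labels ties the 3 samples of each group to separate dishes or passages. The p-values below thus weigh a difference only against the scatter among these libraries, and that scatter could be technical.

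All 7 members had enough counts to be tested, and 5 passed the test between EVs and ERS (edgeR, adjusted p under 0.05), against 47.4% of all tested genes. Mbtps1 was the 1 member that was higher in EVs, where 22.6% of tested genes were higher. Xbp1, Atf6, Ern1 and Mbtps2 were lower in EVs, 4 of 7, where 24.7% of tested genes were lower. Rtcb and Atf6b did not pass. The changes ran from a 3.58-fold lower level of Xbp1 to a 1.32-fold higher level of Mbtps1, and Xbp1 and Atf6 were the 2 members that passed with a change of at least 2-fold, a size reached by 5.97% of tested genes. The groups did not overlap in 5 members, the same that passed, against 54.5% of tested genes.

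In the IRE1 arm, the mRNA of the transcription factor was far lower in EVs, that of its sensor slightly lower, and that of the ligase did not pass the test. Xbp1 (chromosome 11, 5520659 to 5525893, plus strand, coordinates here and below on GRCm38) had 50.8, 51.3 and 54.4 CPM in EVs, against 182, 193 and 186 CPM in ERS. The lowest ERS library exceeded the highest EVs library by 127 CPM, and the libraries of a group lay close together. The log2 fold change, EVs minus ERS, was -1.84 ± 0.05 (SE, edgeR adjusted p = 4.83e-20), with a 95% interval of -1.94 to -1.74. A larger absolute change was found in 1.22% of tested genes.

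Ern1 (chromosome 11, 106394650 to 106487852, minus strand), the sensor kinase and RNase, had 82.0, 86.0 and 90.0 CPM in EVs, against 106, 104 and 108 CPM in ERS. All EVs libraries were below all ERS libraries, with 14.2 CPM between the nearest. The log2 fold change was -0.30 ± 0.05 (SE, edgeR adjusted p = 1.44e-05), a 1.23-fold lower level, close to the middle of the ranking by size, since 47.9% of tested genes changed more. Ern2, which encodes a second IRE1 known from gut epithelium, had 0, 4 and 0 counts in EVs and 0 in each ERS library, and was not tested.

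Rtcb (chromosome 10, 85938637 to 85957823, minus strand), the ligase, had 114, 113 and 117 CPM in EVs, against 113, 119.6 and 109 CPM in ERS. The EVs values lay inside the range of the ERS values. Its log2 fold change was 0.01 ± 0.05 (SE, edgeR adjusted p = 0.835), and the 95% interval of the ratio of EVs to ERS was 0.944 to 1.08, so changes beyond those bounds lay outside the interval. The estimate was so near to 0 that its sign was negative without ERS replicate 3 (-0.02) and, by less than rounding shows, without EVs replicate 3.

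**Figure D1:**
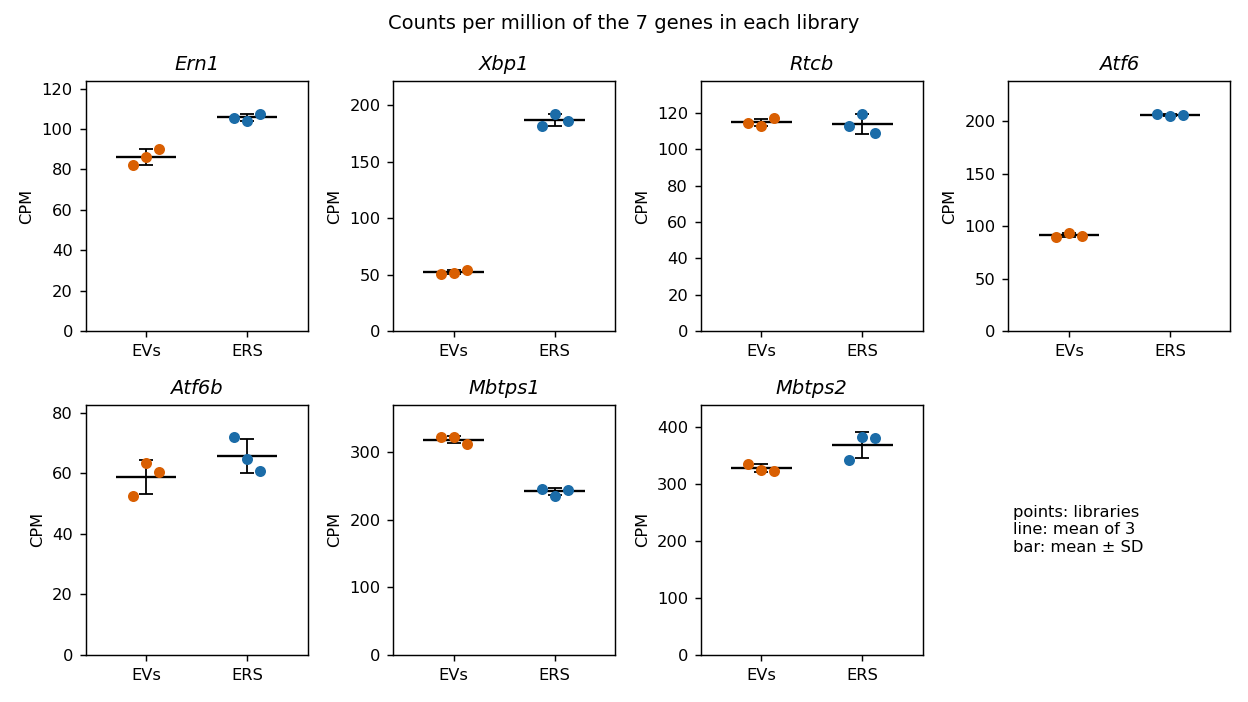
Level of each of the 7 genes in CPM (vertical axes, from 0) in the 3 EVs and the 3 ERS libraries; points are libraries, lines means and bars ± SD. The EVs libraries are all below the ERS libraries for Ern1, Xbp1, Atf6 and Mbtps2, all above for Mbtps1, and overlap with them for Rtcb and Atf6b.

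In the ATF6 arm, the better-studied of the 2 factors was 2.25-fold lower in EVs, and its relative did not pass the test. Atf6 (chromosome 1, 170704674 to 170867771, minus strand) had 90.0, 93.8 and 90.4 CPM in EVs, against 207, 205 and 206 CPM in ERS. Its ERS libraries had the smallest spread of any member, with a coefficient of variation of 0.539%. At 6592, 6187 and 6623 counts, counting error alone would be larger, so this small spread is not read as a trait of the gene. The groups were separated by 111 CPM. The log2 fold change was -1.17 ± 0.04 (SE, edgeR adjusted p = 4.63e-17), with a 95% interval of -1.26 to -1.08, and 4.97% of tested genes changed more.

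Atf6b (chromosome 17, 34647146 to 34655074, plus strand) encodes ATF6 beta, often described as the weaker activator of the pair. It had 52.4, 63.5 and 60.3 CPM in EVs, against 71.9, 64.6 and 60.9 CPM in ERS. The second EVs library was above the third ERS library, and Atf6b had the widest spread of the members, with a coefficient of variation of 9.72% in EVs and 8.47% in ERS. Its log2 fold change was -0.16 ± 0.07 (SE, edgeR adjusted p = 0.0519), with a 95% interval of -0.30 to -0.02. This lay at the edge of the threshold: without EVs replicate 2 the value was -0.23 (edgeR adjusted p = 0.0199) and without ERS replicate 3 it was -0.22 (edgeR adjusted p = 0.00858), both past it, while over all alternatives the adjusted p ran from 0.00858 to 0.317.

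The mRNAs of the proteases that release ATF6 went different ways. Mbtps1 (chromosome 8, 119508156 to 119558735, minus strand), the site-1 protease that makes the first cut in the Golgi, had 322, 322 and 312 CPM in EVs, against 246, 235 and 244.5 CPM in ERS. Every EVs library was above every ERS library, by at least 66.1 CPM. The log2 fold change was 0.40 ± 0.04 (SE, edgeR adjusted p = 6.54e-09), a 1.32-fold higher level. Mbtps2 (chromosome X, 157535371 to 157598715, minus strand), the site-2 protease that makes the second cut inside the membrane, had 336, 326 and 324 CPM in EVs, against 343, 382 and 381 CPM in ERS. The groups were apart by 6.55 CPM, less than the spread within ERS (SD 22.5 CPM, n = 3), because the first ERS library was close to the EVs libraries. The log2 fold change was -0.17 ± 0.04 (SE, edgeR adjusted p = 0.00233), a 1.12-fold lower level.

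**Figure D2:**
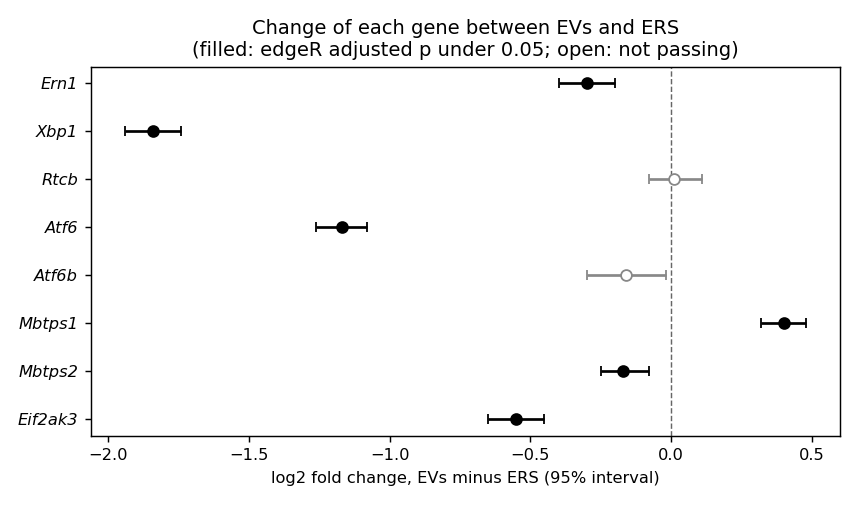
log2 fold change (EVs minus ERS, horizontal axis) of the 7 genes and of Eif2ak3, with 95% intervals from the edgeR fit across all genes; filled points passed and open points did not. Xbp1 at -1.84 and Atf6 at -1.17 stand far from 0, Mbtps1 at 0.40 is the 1 gene on the right that passed, and the other members lie between -0.30 and 0.01.

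Eif2ak3, which encodes PERK, the sensor of the remaining arm, gives a measure for the 2 other sensors. It had 85.5, 83.5 and 90.5 CPM in EVs, against 129, 126 and 125 CPM in ERS, with no overlap. It was 1.46-fold lower in EVs (log2 -0.55 ± 0.05, SE, edgeR adjusted p = 4.80e-10), a size between those of Ern1 and Atf6.

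Levels of different genes were compared per length, as TPM, counts divided by the deposited length of each gene and scaled to a common total. In EVs the order from high to low was Rtcb with 152 ± 2.6 TPM, Mbtps2 with 112 ± 2.2, Mbtps1 with 105 ± 1.9, Atf6b with 73.7 ± 7.2, Xbp1 with 55.6 ± 2.1, Ern1 with 36.4 ± 1.7 and Atf6 with 34.3 ± 0.81 TPM (SD, n = 3). Ern1 was above Atf6 in each of the 3 libraries, but their ranges over libraries overlapped. Ranges leave out that both genes were read in the same libraries, and the order of these neighbours was not tested. The ranges of the other neighbours did not overlap. In ERS the order was Xbp1 with 203 ± 4.9 TPM, Rtcb with 154 ± 5.1, Mbtps2 with 129 ± 8.2, Atf6b with 84.3 ± 6.8, Mbtps1 with 81.1 ± 2.9, Atf6 with 78.9 ± 1.4 and Ern1 with 45.8 ± 1.4 TPM (SD, n = 3). Here Atf6b, Mbtps1 and Atf6 overlapped with their neighbours, and Atf6b and Mbtps1 changed places without ERS replicate 1. Xbp1 was thus in place 5 in EVs and in place 1 in ERS. It made up 9.77% ± 0.30 of the members' summed TPM in EVs and 26.2% ± 0.43 in ERS (SD, n = 3), while that sum was 569 ± 7.7 TPM in EVs and 776 ± 6.2 TPM in ERS. Ern1 and Atf6 had the lowest 2 mean levels in both groups, though in ERS the range of Atf6 overlapped with that of Mbtps1. Atf6b stood in place 4 in both.

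**Figure D3:**
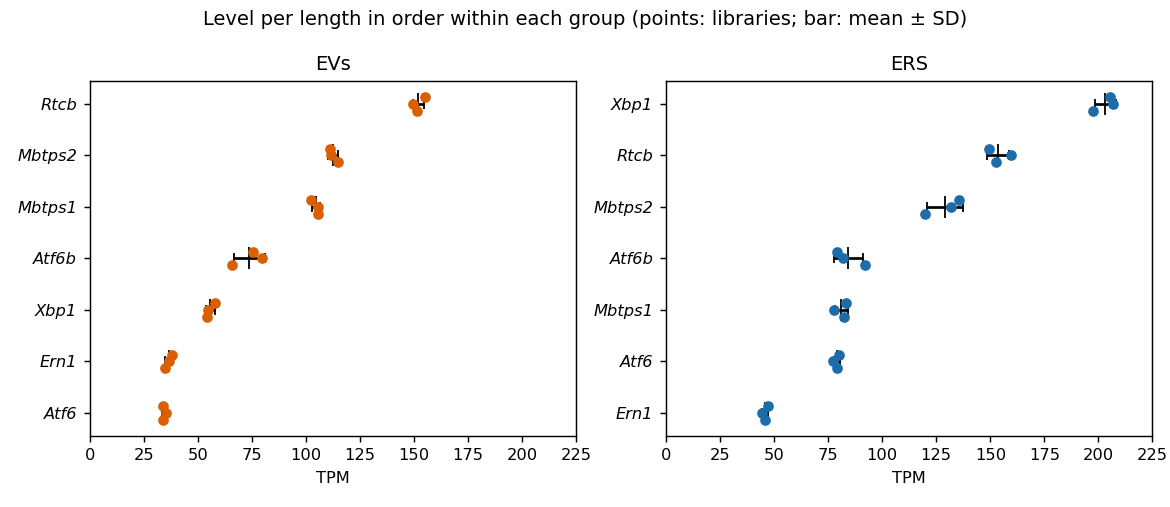
Level per length in TPM (horizontal axes, from 0) of the 7 genes, ordered from high to low within EVs (left) and ERS (right); points are libraries and bars mean ± SD. Xbp1 stands in place 5 at 55.6 TPM in EVs and in place 1 at 203 TPM in ERS. Ern1 and Atf6 have the lowest means in both, with the range of Atf6 overlapping that of Mbtps1 in ERS.

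Ratios of 2 genes within a library do not depend on how libraries are scaled to each other. The pairs were made of members, except that Ern1 was also set against Eif2ak3. Their differences between groups restate the fold changes above and are no further evidence. The 7 ratios compared all separated the groups. Single genes did so in 54.5% of those tested, and the share among pairs of other genes was not computed. Each ratio gave p = 0.10 in an exact two-sided permutation test over the libraries, the smallest that 3 against 3 allows. After Benjamini-Hochberg adjustment over the 7 it was 0.10 as well. This test could therefore not reach 0.05 for any of them. Per count of Ern1 there were 0.620, 0.597 and 0.605 counts of Xbp1 in EVs, against 1.72, 1.85 and 1.73 in ERS, a difference of -1.54 in log2 ratio. Substrate mRNA per sensor mRNA was thus lower in every EVs library. Per count of Rtcb there were 0.454 ± 0.010 counts of Xbp1 in EVs and 1.64 ± 0.055 in ERS (SD, n = 3 each). Against Atf6, the other member with a large change, there were 0.571 ± 0.028 counts of Xbp1 per count of Atf6 in EVs and 0.906 ± 0.031 in ERS.

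The pairs of relatives and of proteases showed the same separation. Per count of Atf6b there were 1.72, 1.48 and 1.5 counts of Atf6 in EVs, against 2.88, 3.17 and 3.38 in ERS, a difference of -1.01 in log2 ratio. Per count of Mbtps2 there were 0.957, 0.988 and 0.963 counts of Mbtps1 in EVs, against 0.717, 0.615 and 0.642 in ERS, a difference of 0.56. Ratios between sensors differed as well. The log2 ratio of Ern1 to Atf6 was -0.09 ± 0.07 in EVs and -0.96 ± 0.02 in ERS, and that of Ern1 to Eif2ak3 -0.01 ± 0.05 in EVs and -0.26 ± 0.03 in ERS (SD, n = 3 each).

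**Figure D4:**
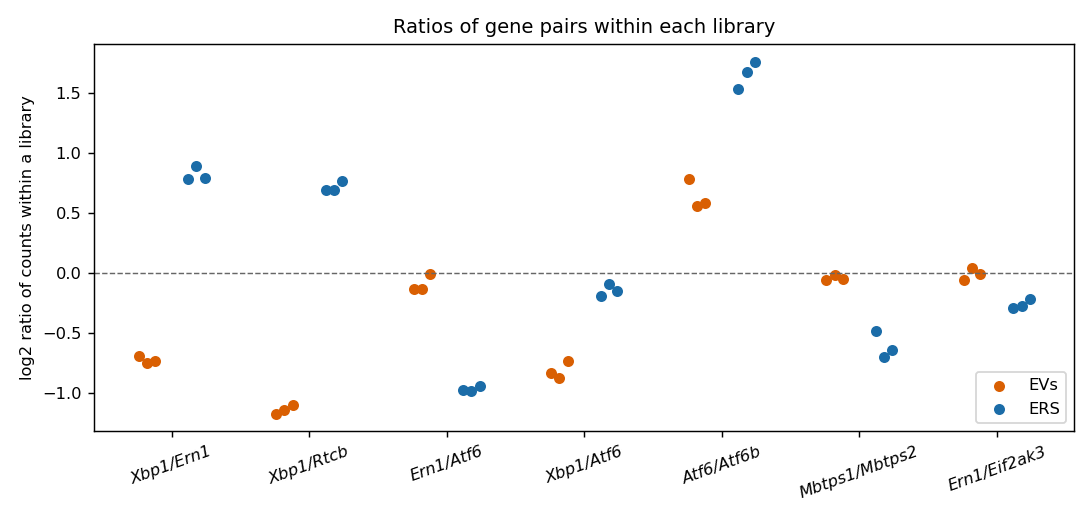
log2 ratio of the counts of 2 genes within each library (vertical axis) for 7 gene pairs, with EVs libraries left of ERS libraries in each pair; points are libraries. The 3 EVs values lie apart from the 3 ERS values in all 7 pairs, with the widest differences, -1.85 and -1.54, for Xbp1 against Rtcb and against Ern1.

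Genes with the most similar profile were sought by the root mean square difference of centred log2 CPM over the 6 libraries, among 10962 genes. This measure follows mostly the change between the groups, so it is a description of size and not of shared control. Nearest to Xbp1 was Pdia3, an ER disulfide isomerase, at 0.037, with 483 CPM in EVs and 1735 CPM in ERS. Then came Serp1, a protein of the ER translocon (0.052), Magt1, a subunit of the oligosaccharyltransferase (0.069), Plcxd2 (0.074) and Acot2, a mitochondrial thioesterase (0.074), with log2 fold changes of -1.81 to -1.73. Nearest to Atf6 were the glycine transporter gene Slc6a9 (0.018), Mis12, a kinetochore gene (0.022), and Gfpt1, the entry enzyme of the hexosamine pathway (0.027). Nearest to Ern1 were Trabd (0.017), Ppie, a prolyl isomerase (0.020), and Ahnak2 (0.020), with log2 fold changes of -0.33 to -0.29.

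The genes listed here as targets of the 2 factors were lower in EVs nearly throughout. These lists were chosen with earlier results of these data known, so the shares describe the listed genes only. Of 17 tested ATF6 targets 16 fell, none rose and Derl3, at a mean of 0.731 CPM in EVs and 0.627 CPM in ERS, did not pass. Their median log2 fold change was -2.57, beside 0.01 over all tested genes, of which 24.7% were lower. Hspa5, the chaperone BiP, was at 952 ± 4.56 CPM in EVs and 10012 ± 256 CPM in ERS (SD, n = 3 each), 10.5-fold lower. Pdia4, a disulfide isomerase, was 8.68-fold lower, and Creld2, which encodes a stress-induced ER protein, 20.1-fold lower. In 15 of the 17 the fall was larger than that of Atf6 itself. Together the 17 genes held 4902 ± 56.3 CPM in EVs and 29989 ± 550 CPM in ERS.

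Of 32 tested XBP1 targets 28 fell, none rose, and Edem3, Ssr4, Erlec1 and Sec61g did not pass, with log2 fold changes of -0.04, -0.07, -0.11 and -0.15. The median was -1.11, beside 0.01 over all tested genes, of which 24.7% were lower and 22.6% higher. Dnajc3, a co-chaperone of BiP, was 7.83-fold lower, Edem1, a lectin of ER-associated degradation, 4.12-fold lower and Serp1 3.34-fold lower. Here 5 of 32 genes fell by more than Xbp1 itself, namely Bhlha15, Ero1lb, Dnajc3, Dnajb9 and Edem1. The 32 genes together held 3250 ± 25.5 CPM in EVs and 7506 ± 68.5 CPM in ERS (SD, n = 3 each). No tested gene was on both target lists, and many genes of either list are known to answer to more than 1 arm.

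The other output of IRE1, decay of mRNAs at the ER, was not measured. Levels of 6 tested substrates known from other systems are given instead. Col6a1, a collagen subunit, was 1.69-fold higher in EVs, Hgsnat, a lysosomal acetyltransferase, 1.44-fold and Sparc, a matrix glycoprotein, 1.23-fold higher. Pdgfrb, a growth factor receptor, fell to 2.28 ± 0.418 CPM in EVs, against 6.64 ± 0.205 CPM in ERS (SD, n = 3 each). It is also 1 of the fibroblast markers summed above and made up most of the difference in their sum. Bloc1s1, the substrate most often used as a marker, had only 0.644 CPM in EVs and 0.499 CPM in ERS, and neither it nor Pmp22 passed. The median of the 6 was 0.34, which lies between Sparc at 0.30 and the scarce Bloc1s1 at 0.37 ± 0.44 (SE).

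**Figure D5:**
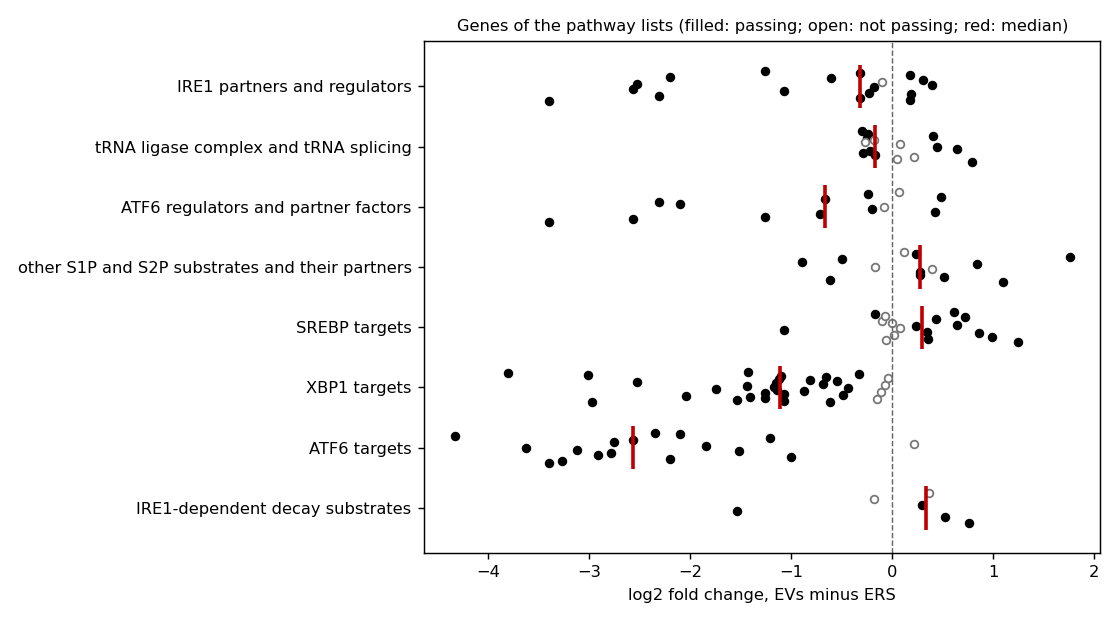
log2 fold change (EVs minus ERS, horizontal axis) of each tested gene of 8 pathway lists; filled points passed, open points did not, and red lines mark the median of a list. The medians run from -2.57 for ATF6 targets and -1.11 for XBP1 targets to 0.30 for SREBP targets and 0.34 for IRE1-dependent decay substrates.

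Among partners and regulators of IRE1, 12 of 18 tested genes fell, 5 rose and Bax did not pass (median -0.32). Over all tested genes, 24.7% were lower and 22.6% higher. By smallest p, the falls were led by Hspa5, which holds the sensor inactive, Sel1l, the adaptor of the degradation complex that turns IRE1 over (5.92-fold lower), and Pdia6, a disulfide isomerase that limits its activity (4.60-fold lower). Hspa5, Sel1l and Pdia6 are also on the ATF6 target list, and Dnajb9, Sec61a1 and Sec63 on the XBP1 target list. These 6 were among the 7 partners that fell by at least 2-fold, so their falls are already counted above. The 5 that rose did so by little: Bak1 and Map3k5, the kinase ASK1 that acts below IRE1, by 0.40 and 0.31 in log2, and Ptpn1, Tmem33 and Tmbim6 by 0.18 to 0.19. Traf2, the adaptor that links IRE1 to that kinase, had a log2 fold change of -0.32 and passed.

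In the RTCB ligase complex and tRNA splicing, 6 of 15 tested genes fell, 4 rose and 5 did not pass, none by 2-fold (median -0.17), beside 24.7% lower and 22.6% higher over all tested genes. RTCB works in a complex with the helicase Ddx1, which fell by 0.30 ± 0.04 in log2 (SE, edgeR adjusted p = 1.10e-06), Fam98a, which fell by 0.24, Rtraf, which fell by 0.22, and Fam98b, which did not pass at 0.05. Zbtb8os, which encodes the ligase's activator archease, was 1.33-fold higher, and the kinase gene Clp1 1.56-fold higher. Cnp, a phosphodiesterase that acts on RNA ends, was 1.73-fold higher and Tsen34, a subunit of the tRNA endonuclease, 1.37-fold higher, while Tsen15 and Tsen54, of the same enzyme, fell by 0.29 and 0.17. Rtca, Fam98c, Pyroxd1 and Trpt1 did not pass either.

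Of 13 tested regulators and partner factors of ATF6, 9 fell, Nfya and Txndc12 rose, and Yy1 and Nfyc did not pass (median -0.66). The share that was lower over all tested genes was 24.7%. After Hspa5, the smallest p belonged to Calr, which encodes a lectin chaperone and was 4.30-fold lower, and then to Sel1l. These 3 are also on the ATF6 target list, and Wfs1 is on the XBP1 target list. Pdia5, an isomerase that acts on ATF6 disulfides, was 1.64-fold lower, and Wfs1, which directs ATF6 to degradation, 2.40-fold lower. The 3 subunits of the CCAAT factor that binds DNA with ATF6 did not move as 1: Nfya was 1.39-fold higher, Nfyb was lower, with a log2 fold change of -0.20, and Nfyc did not pass at -0.08.

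The proteases of ATF6 also cut other proteins, and more of these and their partners rose than fell. Of 13 tested genes 7 rose, beside 22.6% of all tested genes, Creb3l2, Creb3 and 2410131K14Rik fell, and Insig2, Creb3l1 and Creb3l4 did not pass (median 0.28). Scap, the escort of the SREBP factors, was at 414 ± 13.2 CPM in EVs and 231 ± 16.8 CPM in ERS (SD, n = 3 each), 1.79-fold higher. Srebf2 was 1.43-fold and Srebf1 1.22-fold higher, and Fam20c, a secretory kinase, 2.15-fold higher. ER-anchored factors related to ATF6 went both ways: Creb3l2 was 1.53-fold lower, while Creb3l3 was 3.39-fold higher at a low level, 2.58 ± 0.604 CPM in EVs and 0.762 ± 0.388 CPM in ERS (SD, n = 3 each). Of 18 tested SREBP targets 10 rose, again beside 22.6% of all tested genes, Mvd and Sc5d fell and 6 did not pass (median 0.30). Stard4, a cholesterol carrier, was 1.65-fold higher, while Mvd, an enzyme of the mevalonate pathway, was 2.09-fold lower. The 2 kinds of factor that pass through the same proteases thus had target lists with opposite medians, -2.57 for ATF6 and 0.30 for SREBP, a difference that was not tested.

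Other genes that overlap the members' loci held few counts, though some overlaps were long. Ascl4 shared 7570 bases with Rtcb, and Yy2 shared 2867 bases with Mbtps2. Whether counting used strand is not given, and the effect of overlap on the members' counts was not tested. The genes that overlap Rtcb, Atf6 and Mbtps2 held at most 0.192% of the member's counts, and no other annotated gene overlapped Ern1, Xbp1, Atf6b or Mbtps1. Five-prime windows were read for the 5 members in the RefSeq promoter table (GRCm38.p6, 250 bases before to 50 after the start), which were Ern1, Xbp1, Atf6b, Mbtps1 and Mbtps2. The window of Xbp1 is shown because Xbp1 is itself a known target of ATF6 and fell most. It lies on the plus strand at chr11:5520391-5520690, with an ACGT core in capitals, 31 bases before the start.
Xbp1 promoter: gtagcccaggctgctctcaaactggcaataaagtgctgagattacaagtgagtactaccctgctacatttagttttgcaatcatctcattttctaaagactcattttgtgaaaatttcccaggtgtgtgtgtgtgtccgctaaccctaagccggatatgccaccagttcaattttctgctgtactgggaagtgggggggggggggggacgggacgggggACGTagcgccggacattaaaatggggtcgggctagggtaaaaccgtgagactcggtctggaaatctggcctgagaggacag
On either strand, the full ER stress element (ERSE) was in none of the 5 windows and in 0.119% of all 32851, its variant ERSE-II in none and 0.0365%, the palindromic cAMP response element in none and 1.79%, and TGACGTG, the core bound by XBP1 and ATF6, in none and 2.01%. The shorter ACGT, which lies inside TGACGTG, was in the windows of Xbp1 and Atf6b and in 30.9% of all. The letters CCACG, the end of the ER stress element, was in those of Ern1 and Mbtps1 and in 32.8% of all. The CCAAT box and CACGTG, which holds ACGT, were in that of Atf6b and in 37.4% and 7.15% of all. These letters say nothing of binding, and sites outside the window were not searched.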

How the data were processed

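Bulk RNA-seq libraries of 3 EVs and 3 ERS samples were compared, with groups taken from the titles. Adaptors were removed and reads aligned with HISAT2 2.2.1, per the labels' protocols, and featureCounts 2.0.6 is named in the submitters' processing notes. The deposited table gives unnormalized counts for each gene, 1 column per sample, besides gene positions and lengths in bases. Whether counting used strand, and how multiply mapped reads were handled, is not given in the sources used here. The notes name mm39, but start and end of 53499 of 54409 shared gene IDs (98.33%), all 7 members included, equal those of GENCODE M21, so coordinates are read as GRCm38. Symbols that had become dates (27) were restored from gene IDs.

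All genes were fitted with edgeR 4.0.16 in R 4.3.3 (TMM factors, filterByExpr, quasi-likelihood F test, two-sided, Benjamini-Hochberg over 16844 genes). CPM are per TMM-scaled library size, marker sums per plain library size. SEs were derived from fold change and F. The test was tried on simulated counts, where it recovered 49.2% of 1.25-fold, 72.8% of 2-fold and 92.4% of 4-fold changes. Far fewer genes were changed there than passed here, so these shares may not carry over. Ratios were tested with scipy 1.17.1. Each library was counted as 1 sample. Libraries of a group differed by more than sampling noise (mean chi-square per gene 3.71 to 7.78), but that scatter could be technical. Members and lists were chosen with earlier results of these data known. Named from each list are up to 3 genes by smallest p and members of which 5 or fewer moved otherwise, plus Eif2ak3 and the nearest profiles (mean of at least 1 log2 CPM). List genes named beyond these were chosen after their values were seen, and some genes of the lists are not reported here by name.

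Alternatives were DESeq2 size factors, plain library size, no filter, a minimum of 1 CPM in 3 libraries, limma-voom (limma 3.58.1), DESeq2 1.42.0, the replicate number as a block, an adjusted p under 0.01, a fold of at least 2, and leaving out each library.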

Additional observations from a re-analysis of the deposited data

How the results depend on the processing

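Of 91 refits of the members' fold changes (7 genes under 13 alternatives), 85 kept direction and call. The exceptions were Rtcb, whose estimates lay between -0.02 and 0.04 when a library was left out, and Atf6b, which passed with no filter (-0.18, edgeR adjusted p = 0.0124), and without either of 2 libraries, within a range of -0.23 to -0.09. With the replicate number as a block, Atf6b passed as well (-0.16, edgeR adjusted p = 0.0446) and no other member changed its call. Deviations of same-numbered libraries from their group means correlated at -0.043, 0.016 and -0.014, and those of other pairs at -0.029 to 0.044. This showed no pairing by number, but with 3 libraries a group it cannot exclude one. The block gave 3679 higher and 4058 lower genes, against 3808 and 4168. With plain library size more genes were higher (4307) than lower (3706), and lower genes were 46.2% of those called, against 52.3%. With a fold of at least 2, there were 553 higher and 453 lower genes, 0 members higher and 2 lower, and 3 list genes higher and 38 lower, against 30 and 67. Under that fold the single lists held, as higher and lower genes, 0 and 7 (IRE1 partners), 0 and 0 (tRNA ligase), 0 and 5 (ATF6 regulators), 2 and 0 (protease substrates), 1 and 1 (SREBP targets), 0 and 19 (XBP1 targets), 0 and 16 (ATF6 targets) and 0 and 1 (decay substrates); Eif2ak3 did not reach it. At an adjusted p under 0.01, 3 in place of 5 IRE1 partners were higher. The median of all genes stayed between 0.003 and 0.048 in log2. When a library was left out, the log2 fold change was -1.87 to -1.82 for Xbp1, -1.20 to -1.17 for Atf6, -0.33 to -0.27 for Ern1, 0.37 to 0.41 for Mbtps1 and -0.22 to -0.15 for Mbtps2. Without single ERS libraries, Atf6b and Mbtps1 each stood in place 4 or 5 by TPM. All ratios kept their direction. The change of -0.16 in Atf6b thus lay at the edge of the threshold with 3 libraries a group, and no limit of detection was computed.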
